A study of Mus musculus with 4 samples.

Results

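The data described here are the 2 arrays of mouse C2C12 cells that received a control siRNA, out of 4 arrays in the series. C2C12 is an established line of mouse myoblasts, the precursor cells that fuse into muscle fibres, and the cells were proliferating in serum-rich growth medium when RNA was taken. The other arrays of the series, from cells that received siRNA against HuR, were not used. Radioactive (33P) cDNA made from total RNA was hybridised to 16896 spots of cDNA clones, of which 16820 carried a clone with an accession. Of these clone spots, 9468 could be tied to a current mouse gene symbol, which covers 6717 genes. Nothing in the labels says whether both arrays came from separate cultures, so the spread between them may be technical.

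A myoblast that divides in growth medium makes large amounts of protein, and much of its mRNA encodes ribosomal proteins, translation factors, cytoskeleton and secreted matrix. Ribosomal protein mRNAs are short, abundant and under common translational control through a run of pyrimidines at their 5′ end. Fibronectin, collagens and other matrix proteins are made by mesenchymal cells, and actin, tropomyosin and tubulin build the moving and dividing cytoskeleton. Sarcomere genes are known to come on when myoblasts leave the cell cycle and fuse. On spotted cDNA arrays the signal of a spot also depends on the clone printed there, its length and its amount of DNA.

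The deposited values are z-scores: within each of the 2 sections of an array, the mean over all 8448 spots is 0 and the SD is 1. The mean z-score of both arrays was ranked among the clone spots of each section, and the rank is given as a position from 0 to 100, where 100 is the brightest. A gene's position is the median over its clone spots. Bright and dim genes are the upper and lower 10% of all named genes, at positions of at least 84.8 and at most 14.1, and the median of all named genes was 49.3. A position says how bright a spot was among its neighbours, not how many mRNA molecules a cell held. No values are given per length, so genes are set beside each other by position only.

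Both arrays gave nearly the same order of spots. Across clone spots, which are not independent replicates, Pearson's r was 0.983 in the first section and 0.982 in the second, and Spearman's rho was 0.986 and 0.992. A spot's positions on both arrays differed by a median of 1.83 and 1.58. The upper 10% of both arrays shared 807 clone spots in each section, which is 95.8% to 96.8% of each array's set. At the dim end the sets shared 671 spots in the first section, or 79.8% of the set on array 1 and 79.0% of that on array 2. In the second section they shared 755 spots, or 91.2% and 90.3% of the 2 sets. The median SD between arrays was 0.042 and 0.028 z units for bright spots but 0.106 and 0.078 for dim spots, so dim ranks are less certain.

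**Figure D1:**
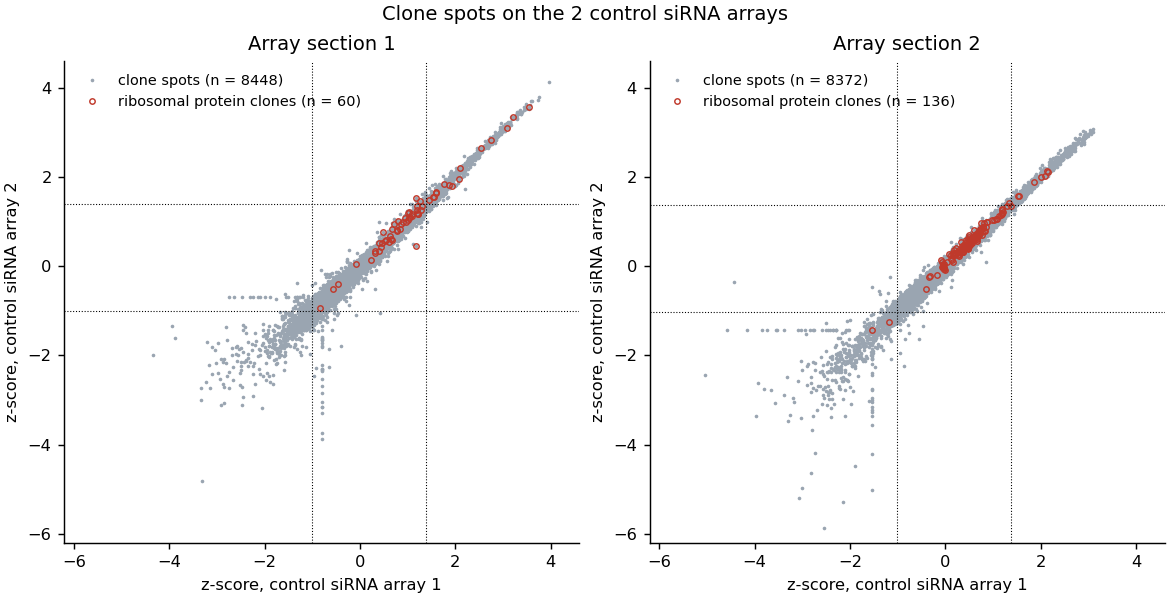
Each point is a clone spot, with its z-score on control siRNA array 1 across and on array 2 up, for array section 1 (left, 8448 clone spots) and section 2 (right, 8372). Dotted lines mark the upper and lower 10% of mean z-scores, red circles are ribosomal protein clones, and points scatter more below the lower line than above the upper one.

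Cytosolic ribosomal proteins formed the brightest of the 33 gene lists. Of 80 listed genes 73 were measured, and all 73 lay above the median of all named genes, against 50% of all named genes. Their median position was 77.2 (76.6 on array 1 and 77.7 on array 2), compared with 49.3 for all named genes. Of the 73 genes 19 were bright and 0 were dim, against 10% of all named genes at each end. Proteins of the small subunit (29 genes, median 76.6) and of the large subunit (42 genes, median 77.5) lay close together. The 196 clone spots of these genes came from 78 source plates. Of these spots 187 lay above position 50, 23 were in the upper 10% of their section and 2 in the lower 10%, where 10% and 9.99% of all clone spots lie.

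Rpl31, a protein of the large subunit, stood highest among them at position 97.0. Of its 3 clones, 1 had z-scores of 2.14 and 2.14 on arrays 1 and 2, 1 had 2.16 and 2.12, and 1 had 0.52 and 0.59. The brighter clones came from the same source plate. Rpl8, also of the large subunit, had among the brightest spots of section 1 a clone with 3.55 and 3.57, and its other clones had 2.09 and 2.02 and 0.31 and 0.35. Rpl30 followed at position 93.2, and both of its clones were bright, at 92.4 and 94.0. Rpl37, the lowest of the list, had 1 clone at position 55.8 with z-scores of -0.03 and -0.02.

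Promoter windows of these genes are shown because their positions were high together and their mRNAs are known for a common 5′ end. They are from RefSeq (GRCm38.p6), on the gene's own strand, with 40 bases before the annotated start in lower case and 20 bases from the start in capitals. Rpl31, Rpl36a and Rpl41 are the highest with an entry, Rplp2 and Rpl37 the lowest, and Fau, Rps18 and Rpl35 the highest whose start has a C followed by 4 pyrimidines.
Rpl31, chr1:39367811-39367870, plus strand, position 97.0: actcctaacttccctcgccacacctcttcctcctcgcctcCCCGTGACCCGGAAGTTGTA
Rpl36a, chrX:134585614-134585673, plus strand, position 92.5: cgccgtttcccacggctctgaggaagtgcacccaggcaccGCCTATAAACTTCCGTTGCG
Rpl41, chr10:128549149-128549208, minus strand, position 92.2: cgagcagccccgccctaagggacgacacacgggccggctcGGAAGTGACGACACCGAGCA
Fau, chr19:6057907-6057966, plus strand, position 91.3: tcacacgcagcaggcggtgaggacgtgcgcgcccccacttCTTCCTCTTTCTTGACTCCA
Rps18, chr17:33955646-33955705, minus strand, position 86.4: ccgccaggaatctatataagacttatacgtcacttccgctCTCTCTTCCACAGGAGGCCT
Rpl35, chr2:39005112-39005171, minus strand, position 78.3: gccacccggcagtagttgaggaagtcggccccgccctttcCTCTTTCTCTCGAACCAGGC
Rplp2, chr7:141447611-141447670, plus strand, position 57.0: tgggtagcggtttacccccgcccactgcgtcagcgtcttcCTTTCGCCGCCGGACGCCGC
Rpl37, chr15:5116573-5116632, plus strand, position 55.8: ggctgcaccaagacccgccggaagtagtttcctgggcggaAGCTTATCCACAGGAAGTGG

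A C followed by 4 bases that are C or T stood exactly at the annotated start of 12 of 56 ribosomal protein genes with an entry (21.4%), compared with 2.3% of all 5414 named genes with one. The letters CCGGAAG, the core to which ETS family factors are known to bind, occurred on either strand within 250 bases before to 50 after the start in 41.1% of ribosomal protein genes and in 19.8% of all. Bright genes of any kind had the pyrimidine start in 2.8% and CCGGAAG in 24.5% of entries, and dim genes in 2.6% and 20.7%. Searched on both strands, CCAAT was in 32.1% of ribosomal protein promoters and 40% of all, GGGCGG in 62.5% and 66.1%, and TATAAA in 7.1% and 7.2%. Matches of different motifs may overlap, annotated starts may be inexact, and a match describes letters, not a bound site.

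The median of translation factors lay higher than that of all named genes, but less so than that of ribosomal proteins. Of 47 listed genes 41 were measured, with a median position of 58.3. Of these 26 were above the median of all named genes, 2 were bright (4.9%) and 3 dim (7.3%). Of all named genes 10% lie at each end. Eef1g, a subunit of the elongation factor complex that reloads eEF1A, was at 88.2, with 5 clones between 58.4 and 97.0. Eif2b5, the catalytic subunit of the exchange factor for eIF2, followed at 85.2 with 1 clone. Eef1a1, which brings aminoacyl-tRNA to the ribosome, was at 81.6 with 1 clone. At the other end stood Eif3h, a subunit of eIF3, at 4.396 with z-scores of -1.56 and -1.42.

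Clones whose deposited description names the mouse mitochondrial genome lay higher than all clone spots at the median. This set was formed after its values were seen. The genome encodes proteins of the respiratory chain and the mitochondrial rRNAs and tRNAs, and its transcripts are abundant in most cells. There were 160 such clone spots on 62 source plates, with a median position of 77.9, compared with 50.04 for all clone spots. Of them 46 (28.7%) were in the upper 10% and 10 (6.2%) in the lower 10%. The brightest had z-scores of 3.03 and 3.06 in section 2 and of 2.74 and 2.81 in section 1. Single clones of this set ranged from 0.077 to 99.96. After the median of each source plate was removed, the set's median position was 74.2. Of the 160 spots, 159 carried no gene name. The other 1361 clone spots without a name had a median of 71.2 and 29.5% in the upper 10%. A high share there was thus not particular to clones of the mitochondrial genome.

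Nuclear genes for mitochondrial proteins lay nearer to the middle. Oxidative phosphorylation genes (54 of 77 measured) had a median of 57.1, with 34 above the median of all named genes, 4 bright (7.4%) and 0 dim. Cyc1, cytochrome c1 of complex III, was the brightest at 99.5 with z-scores of 3.17 and 3.17. Uqcr11, another complex III subunit, was at 96.9, and Ndufa12 of complex I at 93.2. Uqcrc1, a core protein of complex III, was the lowest at 21.0, with clones at 8.76 and 33.3. All 4 measured subunits of succinate dehydrogenase, complex II, a group formed after values were seen, lay below the median of all named genes, between 28.6 and 38.8. Mitochondrial ribosomal proteins (51 of 79 measured) had a median of 55.1 and spread over the whole scale. Mrpl38 stood at 97.9, Mrpl1 at 97.0 and Mrpl17 at 93.3, whereas Mrpl46 had one of the dimmest spots of section 1, with z-scores of -3.10 and -2.42. TCA cycle enzymes (20 of 20 measured) had a median of 52.8, from Ogdh, of the 2-oxoglutarate dehydrogenase complex, at 96.1 to Dlat, of the pyruvate dehydrogenase complex, at 22.3. Idh2 was at 88.0.

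Counted by gene, extracellular matrix genes had the highest share of bright members. Of 58 listed genes 36 were measured, with a median of 69.9 (69.5 on array 1, 70.0 on array 2). Of these 10 (27.8%) were bright and 1 (2.8%) was dim, beside 10% of all named genes at each end. Of their 57 clone spots 10 were in the upper 10% of their section and 6 in the lower 10%, where 10% and 9.99% of all clone spots lie. Postn, periostin, had z-scores of 2.19 and 2.16 and a position of 97.2. Fn1, fibronectin, had 1.9 and 2 and stood at 95.9. Col5a2, a chain of type V collagen, had 1.82 and 1.96 and stood at 95.5. Each of these rests on 1 clone. The 12 measured collagen chains, a group formed after values were seen, had a median of 71.6, with 9 above the median of all named genes and 3 bright. The list reached far down: Plod1, a collagen lysyl hydroxylase, was at 9.85 with z-scores of -1.13 and -0.92, and its quartiles were 33.5 and 86.7. After the median of each source plate was removed, the list's median was 57.0, compared with 47.5 for all named genes. Plod1 was then at 56.6, Postn at 99.1, Fn1 at 90.5 and Col5a2 at 82.8.

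**Figure D2:**
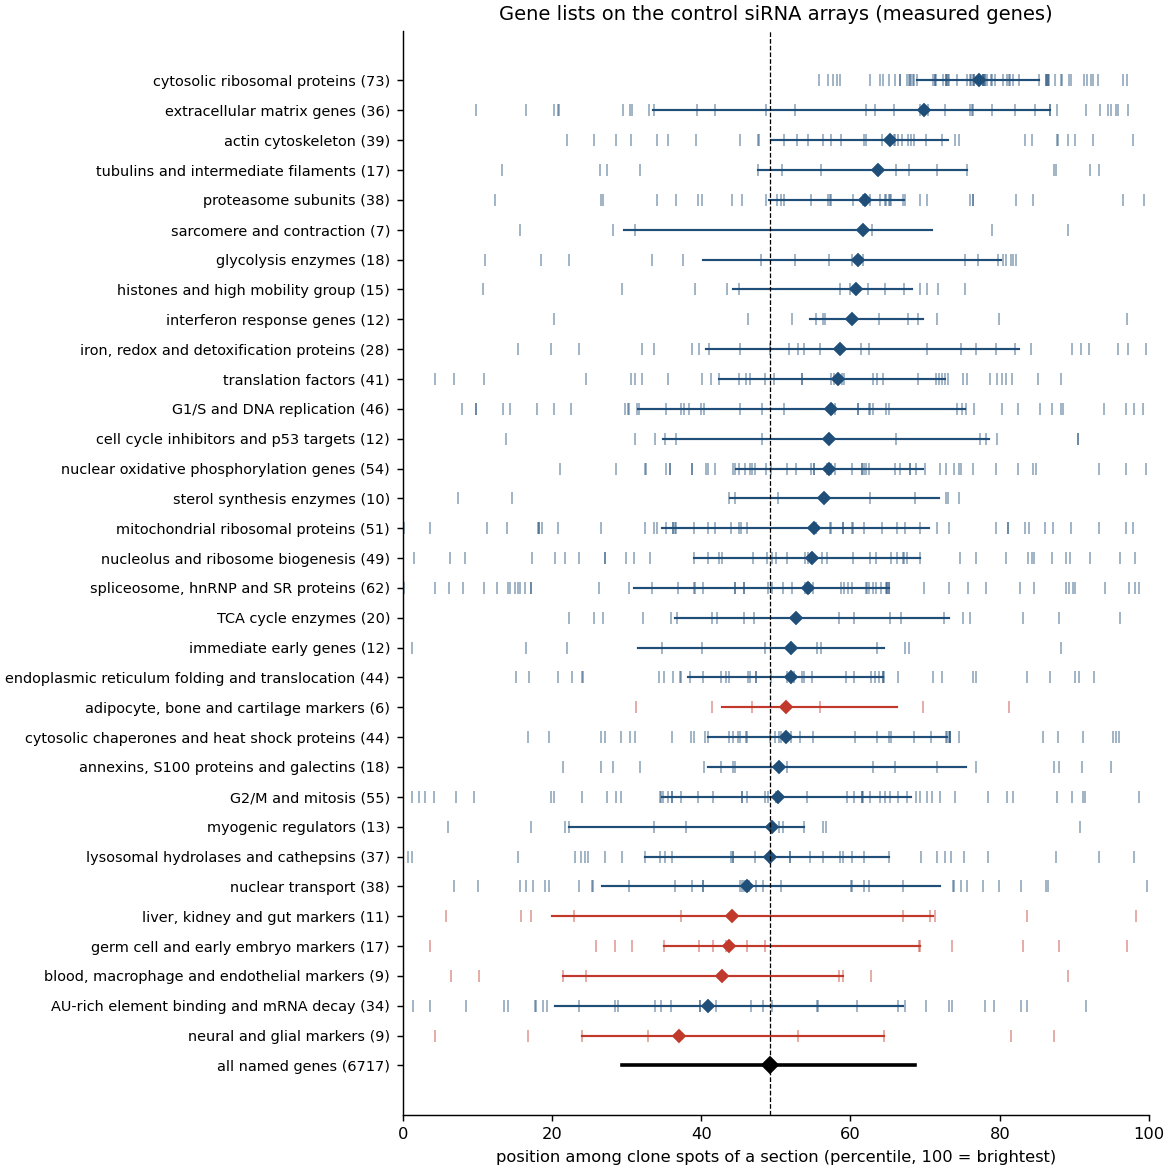
Positions of the measured genes of 33 lists on the control siRNA arrays (number of genes in brackets), with a tick per gene, a bar for the quartiles and a diamond for the median; all named genes stand at the bottom and the dashed line marks their median of 49.3. Lists of other cell types are red, and the ribosomal protein list is the one with no gene left of the dashed line.

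Genes of the actin cytoskeleton had a median of 65.3 (39 of 47 measured), and 29 of them lay above the median of all named genes. Bright members numbered 6 (15.4%) and dim ones 0. Cap1, an adenylyl cyclase-associated protein that recycles actin monomers, was at 97.9 with z-scores of 2.51 and 2.64. Tmsb10, a thymosin that binds actin monomers, was at 92.5, and Arpc4, of the Arp2/3 complex, at 90.1 with clones at 84.7 and 95.6. Msn, moesin, was the lowest at 22.0. Actb, cytoplasmic beta actin, was named after its values were seen, and its 8 clones ran from 47.1 to 99.1 with a median of 84.3. With the median of each grid of spots removed the list's median was 58.5, and with source plate medians removed it was 58.0. Tubulins and intermediate filament genes (17 of 23 measured) had a median of 63.7, with 4 bright (23.5%) and 1 dim (5.9%). Tubb5, the general beta tubulin, was at 93.3 with 3 clones between 54.4 and 94.5, Tuba4a at 92.1 and Plec, plectin, at 87.5. Tubg1, gamma tubulin of the centrosome, was the lowest at 13.3.

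Cell cycle genes covered the whole scale. The list of G1/S and DNA replication genes (46 of 60 measured) had a median of 57.4, with 8 bright (17.4%) and 4 dim (8.7%). Mcm4, a subunit of the replicative helicase, had z-scores of 2.66 and 2.63 and stood at 99.2. Gins2, of the GINS complex that works with this helicase, was at 98.0, and Uhrf1, which recruits maintenance DNA methylation, at 96.9. Cdc7, the kinase that fires origins, stood at 7.88. The 6 genes for the MCM helicase, taken as a group after values were seen, ran from 9.77 to 99.2 with a median of 52.2, although their proteins form 1 ring. G2/M and mitosis genes (55 of 62 measured) had a median of 50.2, with 5 bright (9.1%) and 6 dim (10.9%). Ncapg, a condensin subunit, was at 98.7, Wee1, an inhibitory kinase of Cdk1, at 91.4, Smc3 of cohesin at 91.1 and the motor Kif4 at 1.22. Cell cycle inhibitors and p53 targets (12 of 25 measured) had a median of 57.1. Rbl1 and Trp53 were both at 90.5, Cdkn1b at 79.7 and Mdm2 at 13.9. With source plate medians removed Wee1 was at 63.5, Cdc7 at 37.9 and Mdm2 at 35.2. Mcm4 was then at 97.3 and Ncapg at 99.4.

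Among metabolic lists, glycolysis enzymes (18 of 20 measured) had a median of 60.9, with 0 bright and 1 dim. Aldoc was at 82.2, Pgk1 at 81.7 and Pfkm at 81.5, whereas the lactate transporter Slc16a3 was at 11.04. With source plate medians removed Pfkm was at 54.7, Aldoc at 83.4 and Pgk1 at 81.4. Gapdh, named after its values were seen, had 5 clones between 41.8 and 98.0. Sterol synthesis genes (10 of 22 measured) had a median of 56.4. Hmgcs1, which makes HMG-CoA, was the highest at 74.5, from 1 clone with z-scores of 3.36 and 3.43 and another at position 49.2. Sqle was at 72.8, and at 48.5 with source plate medians removed. Iron, redox and detoxification genes (28 of 31 measured) had a median of 58.6, with 6 bright (21.4%) and 0 dim. Mt1, a metallothionein that binds zinc and copper, had z-scores of 3.11 and 3.23 and stood at 99.5. Prdx2, a peroxiredoxin, was at 97.1 and Sqstm1, the autophagy receptor p62, at 95.9. Gclc, the catalytic subunit of glutamate-cysteine ligase, was the lowest at 15.4. All 6 clones of Ftl1, the ferritin light chain, named after its values were seen, lay between 88.24 and 98.98.

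Spliceosome, hnRNP and SR proteins (62 of 72 measured) had a median of 54.3, with 8 bright (12.9%) and 6 dim (9.7%), near the 10% of all named genes. Sf3a2 was at 98.6, Snrpe at 98.1 and Hnrnph1 at 97.4, whereas Snrpc, of the U1 particle, was at 0.20 with z-scores of -3.16 and -2.21. Nucleolar and ribosome biogenesis genes (49 of 60 measured) had a median of 54.9, with 6 bright (12.2%) and 3 dim (6.1%). Rrp9 was at 98.1, Utp15 at 96.1, Bop1 at 92.1 and Surf6 at 1.57. Nuclear transport genes (38 of 54 measured) had a median of 46.2, although Nxf1, the export receptor for mRNA, was at 99.7. Ipo9 and Ipo13 were at 86.4 and 86.2, and Nup37 at 6.87. Histone and high mobility group genes (15 of 26 measured) had a median of 60.8 with 0 bright, from Anp32b at 75.3, Hmgn2 at 71.7 and Hmgb3 at 70.3 down to H1f0, a linker histone, at 10.7.

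AU-rich element binding and mRNA decay proteins, among them HuR and KSRP of the study's title, had a low median that depended on how clones were combined. Of 55 listed genes 34 were measured, with a median of 40.9, 1 bright (2.9%) and 4 dim (11.8%). Parn, a deadenylase, was at 91.5, the exosome subunits Exosc5 and Exosc1 at 83.6 and 82.9, and the deadenylase subunit Pan2 at 1.45. Restricted to genes with 1 clone spot the median was 55.6, above the 48.7 of all named genes in that setting. With the brightest clone of each gene it was 56.1, compared with 56.0, and with source plate medians removed 30.9, compared with 47.5. Elavl1, which encodes HuR, had z-scores of -0.12 and -0.20 for a clone at position 52.8 and of -0.50 and -0.46 for a clone at 31.1. Khsrp, which encodes the decay-promoting protein KSRP, had 1 clone with 0.72 and 0.63 at position 78.1. Npm1, nucleophosmin of the nucleolus, had clones with -0.06 and 0.03 and with -0.07 and 0.04, at 56.3 and 56.2. All 3 genes therefore lay between the dim and the bright bounds on both arrays.

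Proteasome subunits (38 of 41 measured) had a median of 61.9, and 28 lay above the median of all named genes. Psmd9, an assembly chaperone, was at 99.4, Psma1 at 96.5, Psmb5 at 84.4 and Psmd3 at 12.3. Lysosomal genes (37 of 42 measured) had a median of 49.2, with the cathepsins Ctsz at 97.9 and Ctsb at 93.3, Atp6v1e1 at 87.6 and Manba, beta-mannosidase, at 0.68. Chaperones (44 of 48 measured) had a median of 51.3, with 6 bright (13.6%) and 0 dim. Hspe1, the mitochondrial co-chaperonin, was at 96.005, Dnajb11 at 95.6, Cct6a of the cytosolic chaperonin at 95.1 and Dnaja2 at 16.8. The 8 measured subunits of that chaperonin, grouped after values were seen, had a median of 73.1. Endoplasmic reticulum folding and translocation genes (44 of 52 measured) had a median of 52.0, from Kdelr2 at 92.7, Srp68 at 90.6 and Spcs1 at 90.1 to Sec63 at 15.2. Annexins, S100 proteins and galectins (18 of 28 measured) had a median of 50.4 with 4 bright (22.2%). Lgals3 stood at 94.9, Lgals1 at 91.0 and S100a13 at 21.5. Immediate early genes (12 of 24 measured) had a median of 52.0, with Klf6 at 88.2, Fos at 67.9, Fosl1 at 67.3 and Fosb at 1.25. Interferon response genes (12 of 33 measured) had a median of 60.2, with Ifitm2 at 97.0, Oas1a at 79.9, Irf9 at 71.5 and Gbp2 at 20.2.

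Genes that mark muscle gave a mixed picture, and much of the defining set was not among the named clones. Of 14 myoblast markers 6 were measured, with a median of 43.8, 0 bright and 0 dim. Myod1, Myf5, Myog, Pax7 and Des were not among the genes analysed here, so the label myoblast could not be checked on them. Vim, the mesenchymal filament vimentin, was the highest at 75.7 with z-scores of 0.57 and 0.64. Mef2a, a muscle transcription factor, had clones at 83.0 and 30.4. Id2, an inhibitor of myogenic factors that is known from growing cells, had clones at 46.4 and 52.7, Id3 was at 38.0, Nes at 31.8 and Id1 at 22.3. In bulk RNA, fewer cells of a type and less RNA per cell cannot be told apart.

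The list of myogenic regulators (13 of 37 measured) had a median of 49.5. Fgfr1, a receptor for the growth factors that keep myoblasts dividing, was bright at 90.8 with z-scores of 1.47 and 1.41. Msc, musculin, was at 56.3 and Mef2d at 53.8. Tcf3, which encodes the E proteins that pair with MyoD, had clones at 60.0 and 42.1, whereas Tcf12, another E protein, was at 6.13. Igf2, an autocrine growth factor of muscle cells, had clones at 83.1 and 17.7. Its receptors Igf2r and Igf1r were at 33.7 and 21.7, and Dag1, dystroglycan, had clones at 32.2 and 2.30. Genes of the sarcomere and of contraction were measured for 7 of 48, with a median of 61.7. Myl4, an atrial and embryonic light chain, was at 89.1, Tnnt1, slow troponin T, at 78.9, Cryab at 62.9 and Mylpf, the fast regulatory light chain, at 15.7. With source plate medians removed the median of these 7 was 33.9, which is below that of all named genes. Cryab was then at 27.5, Tnnt1 at 60.5 and Myl4 at 92.7.

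Markers of other cell types spread over the whole scale. Of 186 listed genes 52 were measured, with a median of 43.9, compared with 49.3 for all named genes. Of these 5 were bright and 5 dim, a share near the 10% of all named genes at each end. Apoa1, apolipoprotein A-I of liver and gut, had z-scores of 2.68 and 2.71 and stood at 98.2. Tdgf1, a factor of the early embryo, was at 97.1, Fcer1g of myeloid cells at 89.2, Sycp3, a meiotic protein, at 87.9 and the neuronal tubulin Tubb3 at 87.2. Dim ones included Alas2 of red cells at 10.3, Cdh5 of endothelium at 6.47, Cela1 of the pancreas at 5.74 and Tcl1 of the early embryo at 3.71. By list the medians were 37.1 for 9 neural and glial genes, 42.8 for 9 blood, macrophage and endothelial genes, 43.7 for 17 germ cell and embryo genes, 44.1 for 11 epithelial genes and 51.3 for 6 adipocyte, bone and cartilage genes. Several of these medians changed side. With source plate medians removed the epithelial list was at 59.3 and the neural list at 56.0, compared with 47.5 for all named genes. With clones named alike by both annotation sets the blood list was at 58.5, the neural list at 56.5 and the epithelial list at 55.6, compared with 48.8. Globin clones, a set formed after values were seen, numbered 31 by either annotation and had a median of 50.9.

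**Figure D3:**
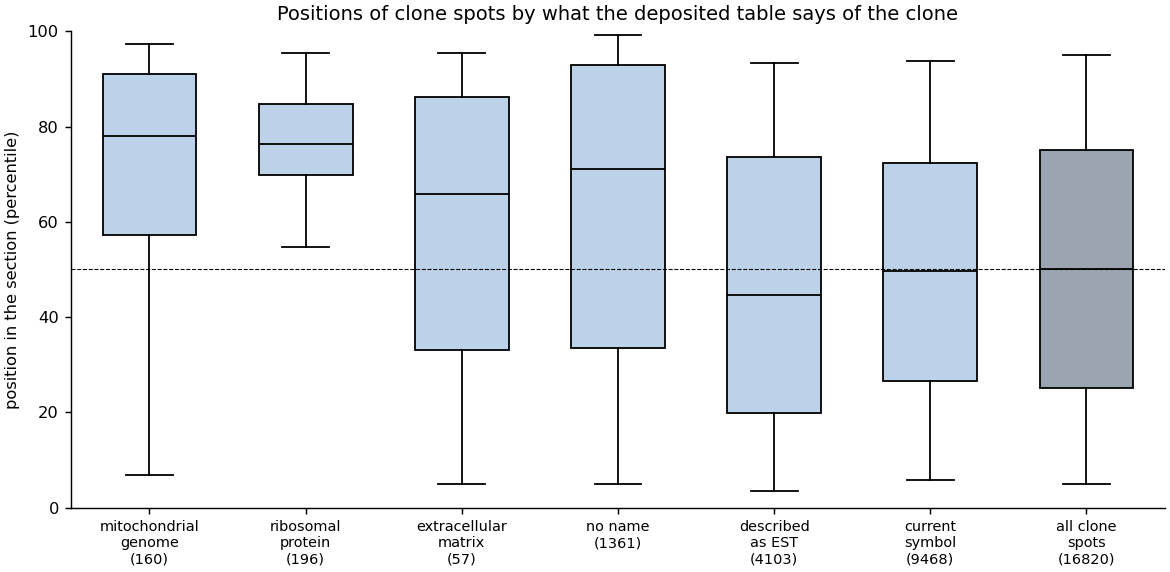
Positions of clone spots by what the deposited table says of the clone (number of spots in brackets), as boxes of the quartiles with a line at the median and whiskers at the 5th and 95th percentile. Ribosomal protein clones have the narrowest box, and clones of the mitochondrial genome and clones with no name lie above all clone spots (grey).

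The brightest named spot of section 1 carried a clone of Otud4, a deubiquitinase, with z-scores of 3.96 and 4.12. The 3 other Otud4 clones lay between positions 30.3 and 76.2. Pfpl, a perforin-like gene, followed with 3.76 and 3.80, but its other clone lay at 34.1. Rnf103, a ubiquitin ligase of the endoplasmic reticulum, had 3.6 and 3.7. Lgals1, the secreted lectin galectin-1, had 3.56 and 3.62, and Rpl8 stood next. Brwd1, a chromatin reader, had 3.44 and 3.50 with its other clone at 22.5, and Hmgcs1 was mentioned above. Prl3d1, a placental hormone, had 3.37 and 3.41, although its 5 other clones lay between 13.04 and 58.74. Tfrc, the transferrin receptor that dividing cells use for iron uptake, had 3.29 and 3.45, with its other clones at 19.1 and 38.8. Gstm2, a glutathione transferase, Nxf1 and Ykt6, a SNARE protein of membrane fusion, closed the 12 brightest with mean z-scores of 3.37, 3.36 and 3.33. The other Gstm2 clone lay at 72.6.

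In section 2 the brightest named spot was Sem1, a small subunit of the proteasome lid, with z-scores of 2.96 and 2.95. The other Sem1 clone lay at 58.4. Podxl, a sialomucin of the cell surface, had 2.95 and 2.90, but its other clones lay between 22.7 and 41.4. Mcrip1, a regulator of a transcriptional corepressor, had 2.79 and 2.80 and a second clone at 93.3. The table's own text calls the brighter clone a phosphotyrosyl phosphatase activator, so its identity is uncertain. Next came Atp6v1h of the proton pump at 2.71 and 2.64, and Vcp, an ATPase that unfolds ubiquitinated proteins, at 2.71 and 2.62. A different clone of Vcp lay at 16.4. Hexim2, Atp5md, Ccdc124, Mcm4, Eif1, Slc17a9 and Uqcc2 completed the 12, with mean z-scores between 2.57 and 2.66. The other Atp5md clone lay at 68.6 and the 3 other Eif1 clones between 36.6 and 75.9. Of the 24 genes, 15 had other spots on the arrays, 29 in all, and 4 of these 29 spots were in the upper 10% and 0 in the lower 10%. Of the 4, 1 is a second spot of the same Vcp clone, which leaves 3. Since 10% of all clone spots lie in the upper 10%, no agreement of clones is read from this count. The 2 arrays differed by an SD of at most 0.113 z units in these 24 spots. Podxl, Vcp, Hexim2 and Eif1 came from source plate 133, where 19.8% of clone spots were in the upper 10%. Slc17a9 and Uqcc2 came from plate 141, where 42.7% were. With source plate medians removed both stood at 92.1, whereas the spots of plate 133 stood between 99.4 and 99.9.

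At the dim end the named spots were less reproducible. In section 1 they were Esco1, a cohesin acetyltransferase, with z-scores of -4.33 and -1.99, Lin37 of the DREAM complex with -2.92 and -3.11, and Cptp, a lipid transfer protein, with -2.84 and -3.06. Mrpl46, Actr1a of dynactin and Ston2, an endocytic adaptor, followed, with mean z-scores of -2.76, -2.76 and -2.75. In section 2 they were Emc8, Cep57, Ppp2r5e, Rab36, Zic5 and Galnt4, with means between -3.22 and -2.80. Rab36 had -1.53 and -4.22, and the first of these values is the most frequent one of its section on that array. The largest SD between the arrays among these 12 spots was 1.90 z units. Emc8 also had a clone at 94.5, at the other end of the scale, and Ppp2r5e had another at 67.7. Esco1 came from source plate 69, and Lin37 and Cptp from plate 81. Cep57, Ppp2r5e, Rab36 and Galnt4 came from plates 168, 169, 170 and 172. On these plates 44.7% to 66.7% of all clone spots were in the lower 10%, so these spots were dim among many dim neighbours. On the plates of the other named dim spots this share was 2.1% to 24%.

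Different clones of 1 gene agreed little. Of 6717 genes, 1906 had 2 or more clone spots, and the median range of positions within a gene was 32.4. Across 1351 genes with exactly 2 clones, Spearman's rho between the clones was 0.024 and their median difference was 27.1 positions. Within section 1 rho was 0.107 (615 genes) and within section 2 it was 0.080 (482 genes). The share of the variance of positions that lay between genes was 0.093 over both sections, 0.140 within section 1 and 0.129 within section 2. The 18 ribosomal protein genes with 2 clones had a rho of 0.485 and a median difference of 8.98. The whole list lay close together, with quartiles of 68.8 and 85.2, and clones of different ribosomal protein genes were not compared. The small difference is thus not read as agreement by gene. Among the 54 ribosomal protein genes with 2 or more clones the share of variance between genes was 0.240. Without ribosomal protein genes this share was 0.057, and for clones named alike by both annotation sets of the table it was 0.122. There were 44 genes with both a bright and a dim clone.

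The source plate of a clone moved with these values. The 249 pairs of clones of 1 gene on 1 plate differed by a median of 7.23 positions, and the 3869 pairs on different plates by 24.96. Pairs of clones of different genes differed by 22.2 on 1 plate and by 27.9 on different plates. The 206 ribosomal protein pairs on different plates differed by 11.04. Plates explained a share of 0.243 of the variance of positions and print grids a share of 0.019. By row within the grids, median positions ran from 39.0 to 66.0 in section 1 and from 25.7 to 64.5 in section 2. How far the plates' own contents account for the share of the plates was not tested, and rows and plates were not separated.

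Among genes with 4 or more clones, the narrowest ranges were those of Rpl35 (4 clones between 75.7 and 78.6), Ppia (5 clones between 89.8 and 92.7) and Rps10 (4 clones between 71.5 and 78.3). Ppia encodes cyclophilin A, a prolyl isomerase, and its 5 clones all came from 1 source plate. The widest were those of Dnaja1, a co-chaperone (2.37 to 98.1), Krt8, a keratin (4.48 to 96.6) and Adam17, a sheddase (0.69 to 91.4). Of 555 genes with 3 or more clones, 18 had every clone at position 75 or above and 9 had every clone at 25 or below. Of these 18 genes, 9 encode ribosomal proteins, among them Rpl41, Rpl23, Fau, Rpl29, Rps18, Rpl26, Rpl35 and Rpl6. The others included Ltf, Ppia, Lgals1, Ftl1, Pwp1, Decr2, Syt11 and B4galt1. Ribosomal protein genes were 54 of all 1906 genes with 2 or more clones, and 18 of the 1351 genes with exactly 2. Their share of the 555 genes with 3 or more clones was not computed, so the 9 of 18 stand without a matching background. The criterion of 75 and 25 was set after values were seen. By construction 25% of clone spots lie at each end. How many genes would meet the criterion with unrelated clones was not computed, so no agreement of clones is read from the counts of 18 and 9.

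**Figure D4:**
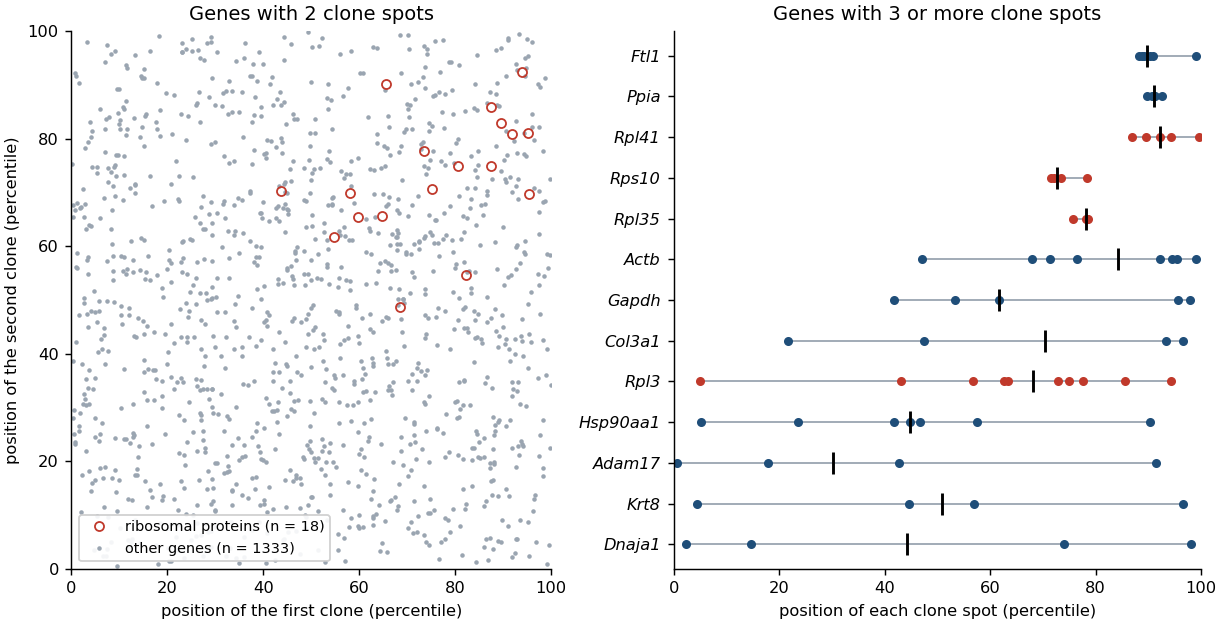
Left, positions of the clones of genes with 2 clone spots, with ribosomal proteins as red circles (n = 18) and other genes as grey points (n = 1333). Right, each clone spot of selected genes with 3 or more clones, with a black bar at the median and ribosomal proteins in red; Ppia and Rpl35 are tight, whereas Dnaja1 and Krt8 span nearly the whole scale.

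Of the 1351 genes with 2 clone spots, 15 (1.11%) had both in the upper 10%. The 10% of all clone spots that lie there is a share of single spots, not of pairs. A matching share for pairs of unrelated clones was not computed, so no agreement of clones is read from the 1.11%. The 15 genes included Ifitm2, an interferon-induced membrane protein, with positions of 96.1 and 98.0, Hprt, of purine salvage, with 91.4 and 98.8, and Cdh2, the N-cadherin by which myoblasts adhere, with 91.0 and 98.4. Clpp, a mitochondrial protease, had 94.5 and 94.9. Gas5, a noncoding host gene of small nucleolar RNAs, had 92.8 and 93.9. The remaining ones were Nsmce1, Mcrip1, Gtpbp4, Myo1c, Pcgf3, Gpam, Rpl30, Shc1, Ints3 and Agtrap. At the opposite end 8 of all 1906 genes with 2 or more clone spots had every clone in the lower 10%. No agreement is read from this count either.

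Clones without a gene name were in the upper 10% more often than clones with a symbol. The 172 clone spots with neither a UniGene cluster nor a name, all in section 2, had a median of 87.8, and 75 of them (43.6%) were in the upper 10%. The 1348 spots with a cluster but no name had a median of 70.2, with 372 (27.6%) in the upper 10%. Clones of the mitochondrial genome made up 159 of these 1520 nameless spots, and the other 1361 still had a median of 71.2, with 401 (29.5%) in the upper 10%. By contrast the 4103 clones described as ESTs had a median of 44.6 and 8.2% in the upper 10%, and the 9468 with a current symbol 49.7 and 8.1%. Named clones thus made up 45.8% of the upper 10%. The other bright spots carried no current symbol, although the table describes some of them, such as the mitochondrial clones.

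Source plates differed widely in brightness. The median position of the clone spots of a plate ran from 4.92 to 88.7 over 176 plates. The 8 plates with the most dim spots held 25.1% of all dim spots but 4.48% of clone spots. The 5 plates with the most bright spots held 11% of the bright ones. On each of these 5 plates 31.2% to 46.2% of clone spots were bright, beside 10% of all clone spots. Across 6717 genes, which are not independent replicates, Spearman's rho between position and the span of the gene in the genome was -0.12. Median spans were 17.4 kb for bright genes, 26.7 kb for dim genes and 23.7 kb for all named genes.

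**Figure D5:**
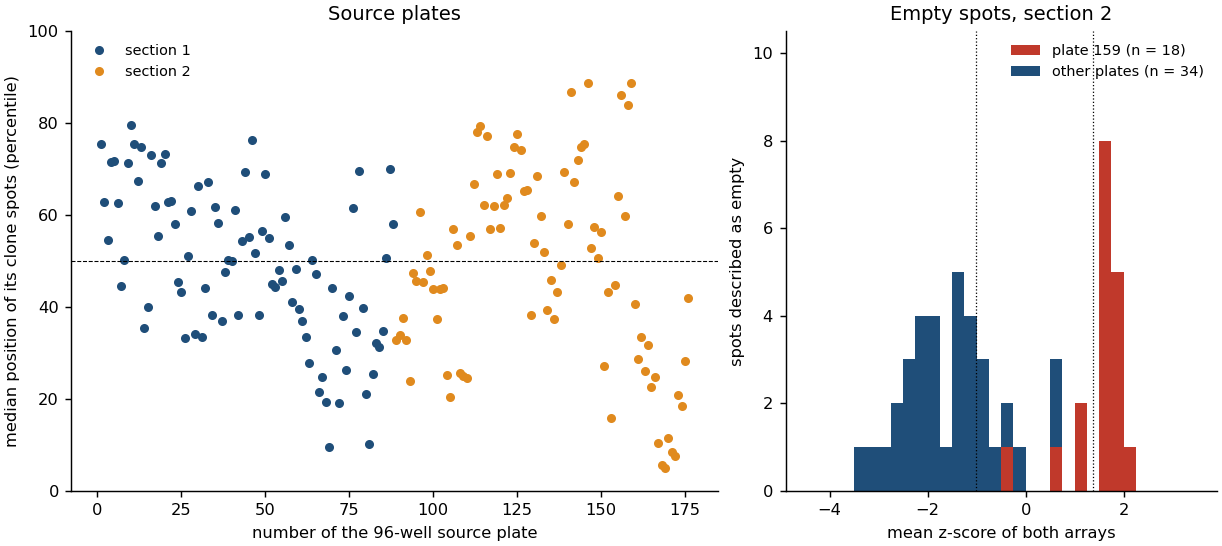
Left, the median position of the clone spots of each 96-well source plate, by plate number and array section, from 4.92 to 88.7. Right, mean z-scores of the 52 spots described as empty, stacked by plate, with dotted lines at the upper and lower 10% of clone spots of section 2; most empty spots of plate 159 lie above the upper line.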

How the data were processed

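The authors deposited z-scores, a score without a unit; scanner, background correction and log base: not given in the sources used here. The standardisation was read from the values: the mean is 0 and the SD is 1 over the 8448 spots of each array section, with 2 decimals. A second deposited table held equal scores in 33792 of 33792 cells compared. Columns were matched to samples by siRNA and number, although the table is named after siRNA against NPM. In each section of an array, 105 to 118 spots held an identical most frequent score, and they were kept.

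Clones were named through gene IDs, RefSeq accessions and symbols of the table's 2 annotation sets, updated with the RefSeq gene table of GRCm38.p6. Of the clone spots, 9468 (56.3%) had a current symbol, 167 with identifiers that disagreed were left unnamed and 7185 had none. Near-identical genes and pseudogenes cannot be told apart on cDNA clones. Positions were computed with Python 3.11, pandas and scipy, and the steps were tested on simulated data. No test was run, since 2 arrays of 1 group hold no contrast. The number of arrays limits the precision.

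Named were the 12 brightest and 6 dimmest named spots per section that lay in the upper or lower 10% on both arrays, 3 highest members and 1 lowest member per list, Elavl1, Npm1, Khsrp, the measured myogenic regulators and markers, and 3 genes each of narrowest and widest range. Other names were chosen after values were seen. Members and lists were chosen with earlier results of these data known. Alternatives left out an array, took the brightest clone or genes with 1 clone, removed grid medians, ranked both sections together, dropped spots at the most frequent value or changed the bright bound. Removing source plate medians and using clones named alike by both sets were added after seeing the data. Results for some genes that these rules name are not reported here.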

Additional observations from a re-analysis of the deposited data

Results flagged for a closer look

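Spots described as empty gave a signal on the control arrays. Of 52 such spots, all in section 2, 19 had z-scores above 0 on both arrays, which is outside the clone spots that the report ranks. They were not spread evenly. On source plate 159 there were 18 empty spots with a median mean z-score of 1.62, and 14 of these were at or above the bound of the upper 10% of clone spots, 1.37. The 78 clone spots of that plate had a median position of 88.7. The other 34 empty spots, on 16 plates, had a median of -1.56, and 26 of them were at or below the bound of the lower 10%, -1.02. What the wells of plate 159 held was not tested. Clones described as the genome of bacteriophage lambda (n = 7) had a median position of 10.4.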

How the results depend on the processing

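No paired analysis was possible because the arrays described belong to 1 group. Leaving out an array gave ribosomal protein medians of 76.6 to 77.7, actin cytoskeleton medians of 64.2 to 64.8 (65.3 with both) and matrix medians of 69.5 to 70.0. With the brightest clone per gene these lists had 80.6, 68.2 and 74.2, with all named genes at 56.0. With genes of 1 clone they had 76.2, 66.1 and 69.4. With grid medians removed they had 78.1, 58.5 and 67.2, and with source plate medians removed 74.3, 58.0 and 57.0. Ranking both sections together gave 64.2 for actin and 70.7 for matrix, and dropping spots at the most frequent value gave 64.6 and 69.4. Clones named alike by both sets gave 70.4 for matrix. Of 33 lists 26 lay above the median of all named genes, and between 20 (source plate medians removed) and 28 did under the alternatives. Under at least 1 alternative, 18 of the 33 lists changed side of the median of all named genes, and 15 did not. Among lists 10 or more positions away, the sarcomere median turned to the other side with source plate medians removed (33.9), and the neural and glial median did so with these removed (56.0) and with clones named alike by both sets (56.5). With source plate medians removed G1/S genes (46.2) and spliceosome genes (44.6) also lay below all named genes (47.5). The cause was not tested. Clones with a symbol made up 49.4% of the upper 25%, against 45.8% of the upper 10%. The share of variance between genes was 0.100 without spots at the most frequent value, 0.063 with source plate medians removed and 0.122 for clones named alike. Of the 10 lists 10 or more positions away from all named genes, 9 lay above, and 8 of these did so under all 9 alternatives. Dim ranks are limited by the larger spread between arrays.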
